A study of Mus musculus with 17 samples.

Results

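This account covers 9 genes that build the tight junction alongside the claudins: the junctional adhesion molecules (JAMs) F11r, Jam2 and Jam3, the MARVEL-domain membrane proteins Ocln, Marveld2 and Marveld3, and the cytoplasmic scaffold and adaptor proteins Tjp1, Tjp3 and Cgn. The genes were named by symbol, not by a rule on a measured value. They were chosen with earlier results of these data known. All 9 were found among the 52545 genes of the table, and all 9 were tested, since each reached 10 in 5 libraries or more, as 18624 genes did. The libraries were made from liver outside the tumours of 17 mice, all C57BL/6J males at 32 weeks of age. The 6 CLDN1 mAb mice had received DEN, a liver carcinogen, once at 100 mg/kg in week 1, were fed CDA-HFD, and were injected intraperitoneally with 500 µg of an antibody to claudin-1 once per week for 16 weeks. The 6 Vehicle Control mice had the same DEN and CDA-HFD, with PBS injected on the same schedule. The 5 Regular diet mice had neither DEN nor CDA-HFD and no injection, so carcinogen, diet and injections cannot be told apart in any comparison with them. The whole tissue was sequenced, so fewer cells of a type and less RNA per cell cannot be told apart.

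Tight junctions seal the space between neighbouring epithelial cells, and in liver they separate the bile canaliculus, the channel formed between hepatocytes, from the blood side. Claudins form the strands, occludin and tricellulin sit in the strands or where 3 cells meet, and JAMs are single-pass immunoglobulin-fold proteins beside them. The zonula occludens scaffolds and cingulin tie these membrane proteins to actin and to myosin signalling. JAMs also occur on endothelial cells, leukocytes and fibroblasts, where they bind integrins and one another.

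Promoter windows are shown for the 4 genes with a RefSeq promoter entry that differed between mice on CDA-HFD and Regular diet mice, because 2 of them were higher and 2 lower. Of the 9 genes, 6 had an entry in the RefSeq table (build GRCm38.p6), with 9 windows in all, each running from 250 bases before to 50 bases after a start. Marveld2 and Tjp3 have 2 windows each, of which the one that matches the gene's start in the GENCODE annotation is shown. The windows below are the F11r window at chr1:171437311-171437610 on the plus strand, the Marveld2 window at chr13:100616922-100617221 on the minus strand, the Tjp3 window at chr10:81291532-81291831 on the minus strand and the Cgn window at chr3:94786433-94786732 on the minus strand. Letters run 5′ to 3′, and capitals mark a match, on either strand, to GGGCGG (the GC box), CACCTG (a Snail-type E-box) or TGANTCA (AP-1).
F11r: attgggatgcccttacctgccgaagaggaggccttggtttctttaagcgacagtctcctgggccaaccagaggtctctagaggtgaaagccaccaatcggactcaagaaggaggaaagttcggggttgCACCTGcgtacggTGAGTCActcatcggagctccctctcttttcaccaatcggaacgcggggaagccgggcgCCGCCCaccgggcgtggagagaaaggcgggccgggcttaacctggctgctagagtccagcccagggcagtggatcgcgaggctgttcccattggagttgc
Marveld2: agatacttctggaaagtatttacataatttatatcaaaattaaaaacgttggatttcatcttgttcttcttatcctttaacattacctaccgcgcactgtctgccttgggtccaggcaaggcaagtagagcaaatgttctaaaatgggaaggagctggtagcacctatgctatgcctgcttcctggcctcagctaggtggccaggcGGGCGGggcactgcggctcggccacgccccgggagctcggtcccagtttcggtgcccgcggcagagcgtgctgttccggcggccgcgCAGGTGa
Tjp3: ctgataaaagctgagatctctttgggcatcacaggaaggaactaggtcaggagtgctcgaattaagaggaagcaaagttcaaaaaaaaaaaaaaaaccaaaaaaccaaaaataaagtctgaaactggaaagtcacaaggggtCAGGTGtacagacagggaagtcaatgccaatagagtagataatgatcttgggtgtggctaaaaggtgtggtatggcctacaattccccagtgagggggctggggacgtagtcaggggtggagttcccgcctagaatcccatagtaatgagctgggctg
Cgn: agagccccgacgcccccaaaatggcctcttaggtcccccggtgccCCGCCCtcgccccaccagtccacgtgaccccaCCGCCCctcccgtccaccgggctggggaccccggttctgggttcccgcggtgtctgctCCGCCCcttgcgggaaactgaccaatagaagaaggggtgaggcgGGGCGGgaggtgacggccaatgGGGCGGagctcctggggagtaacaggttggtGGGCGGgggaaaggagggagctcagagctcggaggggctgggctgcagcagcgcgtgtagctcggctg
The Cgn window held GGGCGG 6 times and the Tjp3 window not at all. CACCTG was found once in the F11r, Marveld2 and Tjp3 windows and was absent from the Cgn window, and TGANTCA was found once, in the F11r window. Counted by gene, GGGCGG was in a window of 5 of 6 genes and CACCTG in a window of 4 of 6. Over all 9 windows, of which the 2 of Marveld2 overlap, as do the 2 of Ocln, GGGCGG was present in 7 and CACCTG in 7, against 35.7% and 20.2% of all 32851 promoter windows of the same length. TGANTCA was present in 1 of 9, against 7.81% of all windows. The GGAATG (TEAD), ACCGGTT (grainyhead-like core) and CAAAGTC (HNF4 core) letters were in none of the 9 windows, against 14.7%, 1.02% and 4.44% of all windows. The windows of the 4 genes shown were 60.3% G and C in F11r, 54% in Marveld2, 45.3% in Tjp3 and 70.3% in Cgn, and the other windows of Marveld2 and Tjp3 were 59% and 57.3%, against a median of 52.7% for all windows. No matches overlap in the 4 windows shown, and a match is only a description of these letters.

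Values are normalized counts, and a log2 fold change is a difference of group means of log2(value + 1), tested with limma with Benjamini-Hochberg adjustment over all 18624 genes. The estimated depth was 27.7 to 55.6 M fragments in CLDN1 mAb libraries, 36 to 59.5 M in Vehicle Control libraries and 30.4 to 55 M in Regular diet libraries. Regular diet replicate 1 stood apart from its group, so the comparisons of the 9 genes and of the junction lists with Regular diet are given with and without it. Its genes with under 2 kb of exon were 0.84 higher on the log2 scale, in the median, than the mean of the other 4 Regular diet libraries, and its genes over 5 kb were lower by a difference of -0.52. The long-minus-short difference was -1.36 in that library, 0.30 to 0.35 in the other Regular diet libraries, -0.46 to 0.25 in CLDN1 mAb libraries and -0.29 to 0.26 in Vehicle Control libraries. Each library was set against the mean of the others of its group. For the other Regular diet libraries that mean includes replicate 1, which shifts their difference upward. Of 17 hepatocyte markers tested, 0 were higher and 13 lower in Vehicle Control than in Regular diet mice, and the hepatocyte sum ran from 2959923 to 4609325 in CLDN1 mAb, 1281433 to 3632976 in Vehicle Control and 4293814 to 9382256 in Regular diet mice, where the highest without replicate 1 was 5179937. Without Regular diet replicate 1, 0 of the 17 hepatocyte markers were higher and 11 lower. Of all genes tested, 29.8% were higher and 20.7% lower in Vehicle Control than in Regular diet mice, and 32% and 25.4% without that library. These shares are the background of all marker counts given here. The defining hepatocyte gene Alb (albumin) had a listed value of 0 in each of the 17 libraries. Trf, which is in this count and sum, averaged 714753 ± 374877 in CLDN1 mAb, 251506 ± 312627 in Vehicle Control and 1063385 ± 427273 in Regular diet mice (SD). Its log2 fold change in Vehicle Control against Regular diet mice was -10.52 (SE 4.22, limma adjusted p = 0.046). With these group means, such a difference needs some Vehicle Control libraries with values far below their group mean. It is therefore not read as a loss of that size. Of the cholangiocyte, fibroblast and stellate cell, and leukocyte markers, 15 of 15, 12 of 15 and 12 of 15 were higher in Vehicle Control than in Regular diet mice and 0 lower. The cholangiocyte sum ran from 45083 to 86510 in CLDN1 mAb, 49457 to 111953 in Vehicle Control and 4466 to 5970 in Regular diet mice. Its largest part was 1 gene, Spp1, with means of 53087, 73953 and 2715 in these groups. The fibroblast and stellate cell sum ran from 35244 to 114686 in CLDN1 mAb, 39960 to 162411 in Vehicle Control and 13323 to 20510 in Regular diet mice. Of 17 endothelial markers, 1 was higher and 2 lower in Vehicle Control than in Regular diet mice, and 1 and 4 without replicate 1. Their sum ran from 6623 to 20744 in CLDN1 mAb, 5417 to 30239 in Vehicle Control and 18069 to 26973 in Regular diet mice. The part of these markers in the results below was not tested.

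Between Vehicle Control and Regular diet mice, 3 of the 9 genes were higher (F11r, Jam3 and Marveld2) and 2 lower (Tjp3 and Cgn) at an adjusted p under 0.05. Among all genes tested, 29.8% were higher and 20.7% lower, so the share of the 9 that changed was near that of all genes. The median log2 fold change was 0.67 over the 9 genes and 0.04 over all genes. With every library scaled to the same total, 6 were higher and 1 lower, against 50.3% and 6.79% of all genes, at a median of 1.29 over the 9 genes and 0.65 over all genes. Without Regular diet replicate 1 the same counts, 3 higher and 2 lower, were obtained, against 32% and 25.4% of all genes. Between CLDN1 mAb and Regular diet mice 2 genes were higher (F11r and Marveld2) and 2 lower (Tjp3 and Cgn), against 24.8% and 14.1% of all genes, and 4 were higher and 1 lower with the same total per library, against 37.9% and 4.46% of all genes. Leaving out Regular diet replicate 1 added Tjp1 to the lower genes, for 2 higher and 3 lower, against 27.6% and 20.9% of all genes. Both comparisons use the same Regular diet libraries, so they are not independent of each other.

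**Figure D1:**
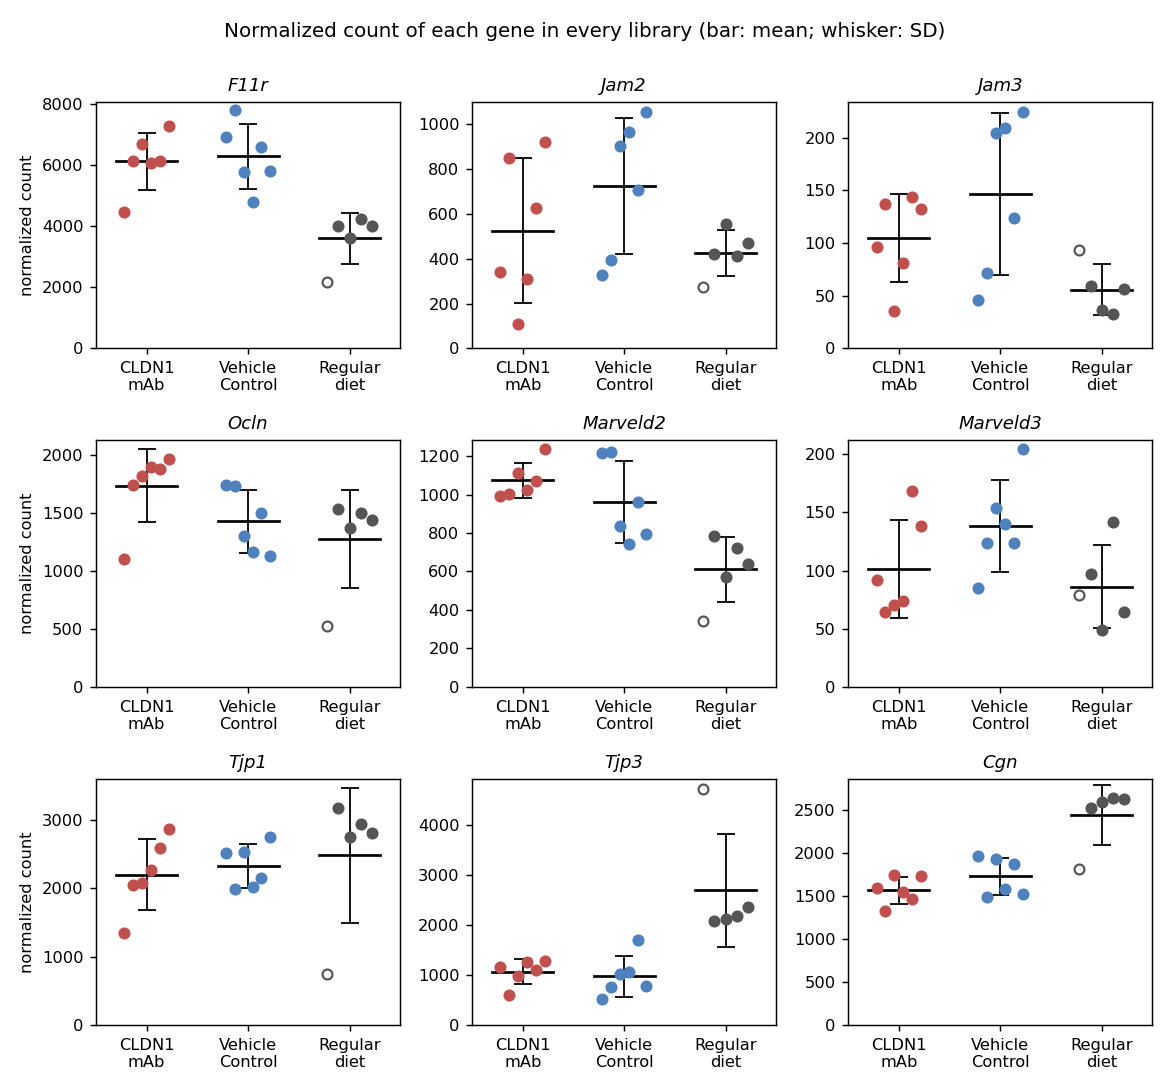
Normalized count (y axes, from 0) of each of the 9 genes in every library of the CLDN1 mAb (n = 6), Vehicle Control (n = 6) and Regular diet (n = 5) groups, with replicates in number order; bars are means, whiskers SD, and the open circle is Regular diet replicate 1. F11r lies above and Tjp3 below the Regular diet libraries in every CLDN1 mAb and Vehicle Control library, and the open circle is the lowest Regular diet value of F11r, Jam2, Ocln, Marveld2, Tjp1 and Cgn and the highest of Jam3 and Tjp3.

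F11r (ENSMUSG00000038235, chr1:171437535-171464603, plus strand, build mm10, as are the other positions) encodes JAM-A, the JAM of epithelia, endothelium, platelets and leukocytes. It had a lowest, median and highest value of 4459, 6127 and 7255 in CLDN1 mAb mice and 4781, 6204 and 7788 in Vehicle Control mice. In the 5 Regular diet mice it had 2174, 4000, 3602, 4237 and 3995. Every library of both CDA-HFD groups lay above every Regular diet library. F11r was higher in Vehicle Control than in Regular diet mice by 0.82 on the log2 scale (SE 0.18, adjusted p = 0.00097), which is 1.77-fold. Against Regular diet mice, CLDN1 mAb mice had a difference of 0.79 (SE 0.18, adjusted p = 0.00197). Regular diet replicate 1 was the low library of its group, and without it the log2 fold changes were 0.65 (adjusted p = 0.00113) for Vehicle Control and 0.61 (adjusted p = 0.00227) for CLDN1 mAb mice. The call was kept in all 30 alternatives of each comparison.

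Jam2 (ENSMUSG00000053062, chr16:84774123-84825928, plus strand) encodes JAM-B, a JAM of endothelial cells that binds JAM-C. Its lowest, median and highest values were 108, 482 and 923 in CLDN1 mAb mice and 330, 805 and 1054 in Vehicle Control mice. Regular diet mice had 275, 420, 554, 413 and 472. The spread among mice on CDA-HFD was wide and covered the whole Regular diet range in CLDN1 mAb mice. The log2 fold change was 0.67 in Vehicle Control against Regular diet mice (95% interval -0.30 to 1.64, adjusted p = 0.24) and 0.02 in CLDN1 mAb against Regular diet mice (-0.95 to 0.99, adjusted p = 0.979), and neither passed. They were 0.52 (adjusted p = 0.38) and -0.13 (adjusted p = 0.845) without Regular diet replicate 1.

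Jam3 (ENSMUSG00000031990, chr9:27097384-27155421, minus strand) encodes JAM-C, found on endothelial cells, fibroblasts and smooth muscle, which binds JAM-B and the leukocyte integrin Mac-1. It had 35.3, 114 and 144 as lowest, median and highest value in CLDN1 mAb mice and 45.6, 164 and 225 in Vehicle Control mice, against 93.4, 59.1, 36.8, 33.03 and 56.5 in Regular diet mice. The ranges overlapped in both comparisons with Regular diet. Jam3 was higher in Vehicle Control than in Regular diet mice by 1.26 on the log2 scale (SE 0.45, adjusted p = 0.026), which is 2.39-fold. The call was lost in 7 of 30 alternatives, with an adjusted p of 0.064 without Regular diet replicate 3, 0.0692 without Regular diet replicate 4, and 0.0605, 0.0604 and 0.0614 without Vehicle Control replicate 3, 4 or 6. It was also lost with the replicate number as a block (log2 fold change 1.12, adjusted p = 0.072) and after quantile normalization (0.46, adjusted p = 0.303). The difference of 0.86 between CLDN1 mAb and Regular diet mice did not pass (SE 0.45, adjusted p = 0.142). The log2 fold changes without Regular diet replicate 1, the highest of its group, were 1.46 (adjusted p = 0.0129) for Vehicle Control and 1.06 (adjusted p = 0.0681) for CLDN1 mAb mice. Depth was thin for this gene, at an estimated 24 to 45 fragments per Regular diet library. The strand of the counting was not given, and 1159 of the 3200 exon bases of Jam3 overlap the antisense gene Gm48796, which had a median of 27.3 in CLDN1 mAb mice, 53.7 in Vehicle Control mice and 15.8 in Regular diet mice. Reads of both genes cannot be told apart there.

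Ocln (ENSMUSG00000021638, chr13:100496507-100552718, minus strand) encodes occludin, a membrane protein of tight junction strands. It had 1107, 1849 and 1966 as lowest, median and highest value in CLDN1 mAb mice and 1131, 1400 and 1738 in Vehicle Control mice. Regular diet mice had 528, 1533, 1370, 1500 and 1441. Apart from the 528 of replicate 1, the Regular diet values lay within the range of both other groups. The log2 fold change was 0.24 in Vehicle Control against Regular diet mice (adjusted p = 0.441) and -0.05 (adjusted p = 0.798) without replicate 1, so its sign rests on that library. For CLDN1 mAb against Regular diet mice it was 0.52 (adjusted p = 0.107), and 0.22 (adjusted p = 0.27) without replicate 1.

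Marveld2 (ENSMUSG00000021636, chr13:100595957-100616971, minus strand) encodes tricellulin, which seals the corners where 3 cells meet. It lies near Ocln on chromosome 13 without sharing exon bases with it. It had 994, 1046 and 1238 as lowest, median and highest value in CLDN1 mAb mice and 742, 899 and 1220 in Vehicle Control mice, against 341, 783, 571, 720 and 637 in Regular diet mice. Every CLDN1 mAb library lay above every Regular diet library, whereas the Vehicle Control and Regular diet ranges overlapped between 742 and 783. Marveld2 was higher in Vehicle Control than in Regular diet mice by 0.68 (SE 0.19, adjusted p = 0.00682) and in CLDN1 mAb than in Regular diet mice by 0.86 (SE 0.19, adjusted p = 0.00164) on the log2 scale. Without Regular diet replicate 1 these were 0.49 (adjusted p = 0.0108) and 0.67 (adjusted p = 0.00154). With a trend on exon length also removed, the Vehicle Control difference was 0.30 and no longer passed (adjusted p = 0.127).

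Marveld3 (ENSMUSG00000001672, chr8:109947914-109962203, minus strand) encodes the third tight junction MARVEL protein, which in cultured epithelial cells has been tied to stress kinase signalling. It had 64.3, 82.9 and 168 as lowest, median and highest value in CLDN1 mAb mice and 85.3, 132 and 204 in Vehicle Control mice. Regular diet mice had 78.6, 97.1, 49.0, 142 and 64.2. All 3 groups overlapped. The log2 fold change in Vehicle Control against Regular diet mice was 0.72 (SE 0.31, adjusted p = 0.0598), just outside the threshold. Between CLDN1 mAb and Regular diet mice it was 0.23 (adjusted p = 0.595). These were 0.71 (adjusted p = 0.0764) and 0.22 (adjusted p = 0.604) without Regular diet replicate 1.

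Tjp1 (ENSMUSG00000030516, chr7:65296165-65527781, minus strand) encodes ZO-1, the scaffold that binds claudins, occludin and JAM-A and links them to actin. It had 1349, 2171 and 2859 as lowest, median and highest value in CLDN1 mAb mice and 1982, 2330 and 2751 in Vehicle Control mice, against 747, 3169, 2752, 2933 and 2800 in Regular diet mice. The Regular diet values other than the 747 of replicate 1 all lay above the 6 Vehicle Control values. With all libraries the log2 fold change was 0.06 in Vehicle Control against Regular diet mice (95% interval -0.57 to 0.69, adjusted p = 0.891) and -0.05 in CLDN1 mAb against Regular diet mice (adjusted p = 0.912). Without that library they were -0.34 (adjusted p = 0.0966) and -0.44 (adjusted p = 0.0372), so 1 library decides the call in the CLDN1 mAb comparison. The sign in the Vehicle Control comparison changed in 5 of 30 alternatives, among them some that kept that library, so it is not settled. With 7811 exon bases Tjp1 is the longest of the 9 genes.

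Tjp3 (ENSMUSG00000034917, chr10:81273207-81291581, minus strand) encodes ZO-3, an epithelial zonula occludens scaffold that binds ZO-1 and claudins. It had 607, 1130 and 1293 as lowest, median and highest value in CLDN1 mAb mice and 525, 909 and 1707 in Vehicle Control mice. Regular diet mice had 4712, 2074, 2113, 2188 and 2371. Every library of both CDA-HFD groups lay below every Regular diet library, with or without the 4712 of replicate 1. Tjp3 was lower in Vehicle Control than in Regular diet mice, with a log2 difference of -1.47 (SE 0.28, adjusted p = 0.000288), or 0.361 times the Regular diet level. The CLDN1 mAb mice had -1.29 against Regular diet mice (SE 0.28, adjusted p = 0.00128). Without Regular diet replicate 1 these were -1.25 (adjusted p = 0.000662) and -1.07 (adjusted p = 0.00288), and the call was kept in all 30 alternatives of each comparison. Tjp3 shares 40 of its 3714 exon bases with its neighbour Apba3, which had a median of 1105 in CLDN1 mAb mice, 948 in Vehicle Control mice and 2067 in Regular diet mice.

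Cgn (ENSMUSG00000068876, chr3:94760069-94786492, minus strand) encodes cingulin, which binds ZO-1 and holds the guanine nucleotide exchange factor GEF-H1 at the junction. It had 1330, 1570 and 1740 as lowest, median and highest value in CLDN1 mAb mice and 1494, 1727 and 1969 in Vehicle Control mice, against 1818, 2520, 2590, 2638 and 2632 in Regular diet mice. All CLDN1 mAb values lay below the Regular diet values, and the Vehicle Control values did so apart from the 1818 of Regular diet replicate 1. Cgn was lower in Vehicle Control than in Regular diet mice, with a log2 difference of -0.49 (SE 0.13, adjusted p = 0.00402), and in CLDN1 mAb than in Regular diet mice, with -0.63 (SE 0.13, adjusted p = 0.00078). Without replicate 1 these were -0.59 (adjusted p = 0.000195) and -0.73 (adjusted p = 3.78e-05). Scaling every library to the same total, which moved the median of all genes by more than any other scaling, to 0.65 in Vehicle Control and 0.44 in CLDN1 mAb against Regular diet mice, gave 0.13 (adjusted p = 0.585) and -0.19 (adjusted p = 0.472) for Cgn, both below that median. After quantile normalization the Vehicle Control difference was -0.31 (adjusted p = 0.0576).

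Counted by ranges, 2 of the 9 genes did not overlap between Vehicle Control and Regular diet mice (F11r and Tjp3), against 29.6% of all genes, and 4 did not between CLDN1 mAb and Regular diet mice (F11r, Marveld2, Tjp3 and Cgn), against 29%. Without Regular diet replicate 1 there were 4 between Vehicle Control and Regular diet mice, since Tjp1 and Cgn, both lower, were added, against 44.2% of all genes. Between CLDN1 mAb and Regular diet mice they were the same 4 genes without that library, against 46.5% of all genes.

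**Figure D2:**
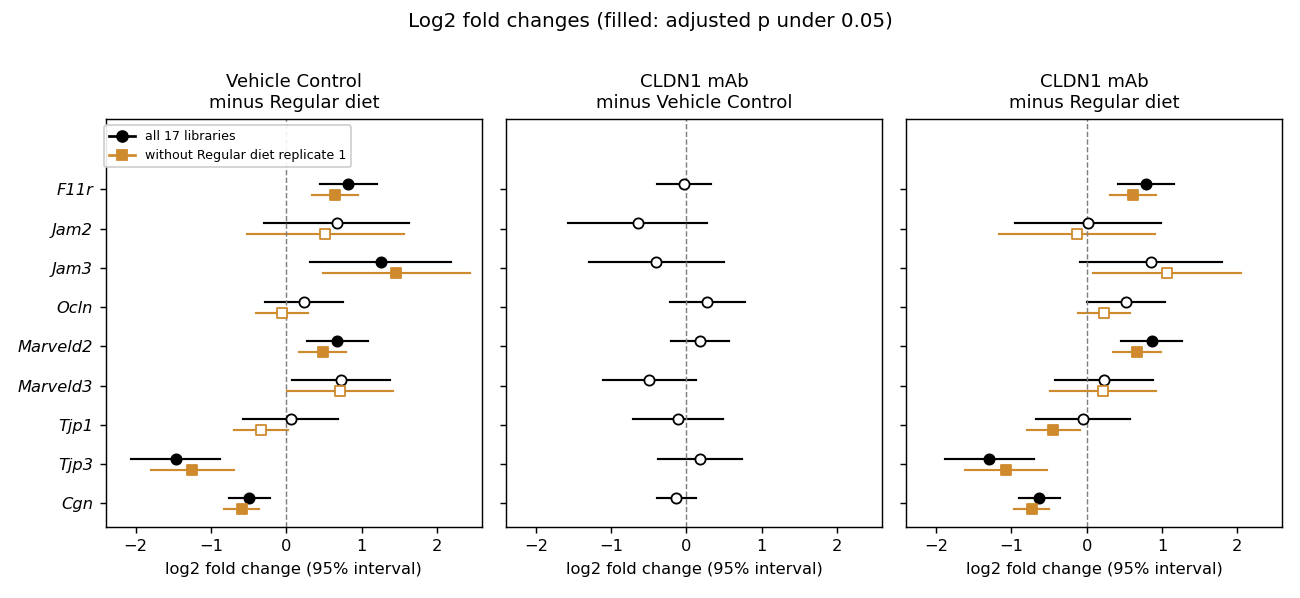
Log2 fold change with its 95% interval (x axes) of the 9 genes in the 3 comparisons, from the fit on all 17 libraries (circles) and without Regular diet replicate 1 (squares); filled symbols have an adjusted p under 0.05. F11r at 0.82 and 0.79 and Tjp3 at -1.47 and -1.29 are filled in both comparisons with Regular diet, Tjp1 moves to the left of 0 without replicate 1, and no symbol is filled for CLDN1 mAb minus Vehicle Control. For that comparison only the fit on all 17 libraries is drawn.

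The genes deviated in both directions in Regular diet replicate 1. Against the mean of the other 4 Regular diet libraries, Tjp1 had a log2 difference of -1.96, Ocln of -1.46, Marveld2 of -0.98, F11r of -0.86, Jam2 of -0.74 and Cgn of -0.51. Marveld3 was at -0.05, Jam3 at 1.04 and Tjp3 at 1.11. F11r, with 2663 exon bases the shortest of the 9, was low in that library, whereas the median gene between 2 and 5 kb was 0.26 higher.

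**Figure D3:**
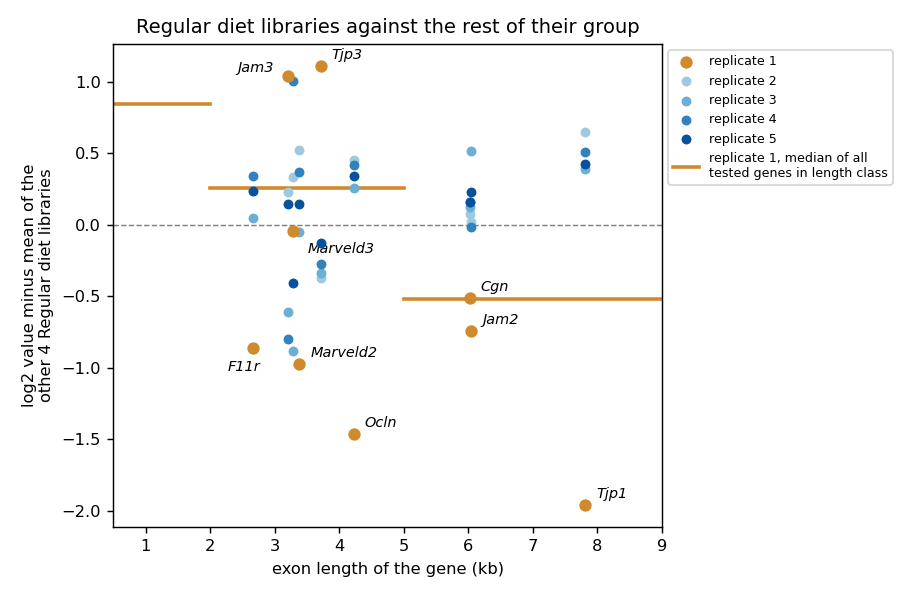
Log2 difference of each Regular diet library from the mean of the other 4 (y axis) against exon length in kb (x axis) for the 9 genes; orange points are replicate 1, blue points replicates 2 to 5, and orange lines the median of all tested genes of a length class in replicate 1. In replicate 1 the differences run from -1.96 for Tjp1 to 1.11 for Tjp3, and the class medians from 0.84 under 2 kb to -0.52 over 5 kb. The mean behind each blue point includes replicate 1.

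The comparison of CLDN1 mAb with Vehicle Control mice asks whether the antibody, whose target claudin-1 is a partner of these proteins in the junction, went with a change in their transcripts. None of the 9 genes passed the threshold, and neither did any of the 18624 genes tested with limma (0%, smallest adjusted p = 0.659), although 1391 genes (7.47%) had an unadjusted p under 0.05. Of the 9 genes 0 had an unadjusted p under 0.05. The ranges of the groups overlapped for all 9 genes, where 0.322% of all genes did not overlap. The median log2 fold change was -0.11 over the 9 genes and -0.05 over all genes. Cldn1, which encodes claudin-1, had a mean of 4058 ± 918 in CLDN1 mAb mice, 3990 ± 2487 in Vehicle Control mice and 6831 ± 1395 in Regular diet mice (SD, n = 6, 6 and 5), with a log2 fold change of 0.26 in CLDN1 mAb against Vehicle Control mice (adjusted p = 0.844) and -1.02 in Vehicle Control against Regular diet mice (adjusted p = 0.0309). The last of these was -1.15 (adjusted p = 0.0214) without Regular diet replicate 1.

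The intervals of the antibody difference were narrowest for Cgn, with a log2 fold change of -0.14 (95% interval -0.40 to 0.12, adjusted p = 0.768), and for F11r, with -0.03 (-0.40 to 0.33, adjusted p = 0.963). For Marveld2 it was 0.18 (-0.20 to 0.57), for Ocln 0.28 (-0.22 to 0.77), for Tjp3 0.18 (-0.38 to 0.74) and for Tjp1 -0.11 (-0.71 to 0.49). The intervals of the low and variable genes were wider, at -0.49 (-1.11 to 0.13) for Marveld3, -0.40 (-1.30 to 0.50) for Jam3 and -0.65 (-1.57 to 0.27) for Jam2. In this fit on all 17 libraries, a difference as large as the one between Vehicle Control and Regular diet mice, in either direction, lay outside the interval for F11r, Marveld2, Tjp3 and Cgn, and inside it, as a lower level, for Jam3. All 17 libraries share the spread behind these intervals, Regular diet replicate 1 included. Without that library the fold changes were the same. The intervals were then -0.42 to 0.21 for Tjp1 and -0.03 to 0.59 for Ocln (limma, adjusted p = 0.75 and 0.434). That of Jam2 stayed wide, at -1.58 to 0.28, and none of the 9 genes passed. The submitters' library codes fall into runs of 25 to 30 and 36 to 42, each with 3 CLDN1 mAb and 3 Vehicle Control libraries, while the Regular diet libraries hold 31 to 35, so code run and group cannot be told apart for Regular diet. Within codes 25 to 30 the log2 fold change of Ocln was -0.05 and of Marveld2 -0.05, and within codes 36 to 42 they were 0.61 and 0.42. For Jam2 they were -0.63 and -0.67. None passed within a run.

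Across the 12 mice on CDA-HFD, Jam2 and Jam3 varied together. The CLDN1 mAb mice had Jam2 values of 339, 849, 108, 311, 625 and 923 in replicates 1 to 6, and Jam3 values of 96.3, 137, 35.3, 81.5, 144 and 132. The Vehicle Control mice had 330, 394, 904, 964, 705 and 1054 for Jam2 and 45.6, 71.6, 204, 209, 124 and 225 for Jam3. The CLDN1 mAb mouse with the lowest Jam2 also had the lowest Jam3, and the Vehicle Control mice held the same order for both genes. Of 36 pairs among the 9 genes, this one had the strongest relation on the log2 scale, with Pearson's r of 0.92 (permutation p = 3e-05, adjusted p = 0.00108) and a Spearman coefficient of 0.895 (permutation, adjusted p = 0.0104). Without the 2 mice farthest from the median of Jam2, r was 0.891. It was 0.964 within CLDN1 mAb mice, 0.991 within Vehicle Control mice, 0.904 within codes 25 to 30 and 0.881 within codes 36 to 42.

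F11r, Ocln and Marveld2 also tended to vary together, but none of their pairs had an adjusted p under 0.05 on both coefficients. F11r and Marveld2 had r of 0.713 (permutation, adjusted p = 0.0624) and a Spearman coefficient of 0.832 (permutation, adjusted p = 0.0216), with r of 0.849 without the 2 farthest mice and 0.651 and 0.869 in the runs of library codes. Ocln and Marveld2 had r of 0.795 (permutation, adjusted p = 0.0341) and a Spearman coefficient of 0.72 (permutation, adjusted p = 0.094), with r of 0.876 without the 2 farthest mice and 0.653 and 0.946 in the code runs. F11r and Ocln had r of 0.767 (permutation, adjusted p = 0.0341) and a Spearman coefficient of 0.601 (permutation, adjusted p = 0.223), and r of 0.519 without the 2 farthest mice, so that relation rests in part on those mice. Within Vehicle Control mice r was 0.927 for F11r and Marveld2, 0.978 for Ocln and Marveld2, and 0.887 for F11r and Ocln. Within CLDN1 mAb mice it was 0.759, 0.548 and 0.931 for the same pairs. Over the 12 mice Jam2 had r of -0.506 with Marveld2 (permutation, adjusted p = 0.329) and -0.35 with Ocln (permutation, adjusted p = 0.57). Within Vehicle Control mice alone these were -0.973 and -0.955, and within CLDN1 mAb mice 0.15 and 0.161. Jam3 had r of -0.725 with Marveld2 (permutation, adjusted p = 0.0624) and -0.528 with Ocln (permutation, adjusted p = 0.329). For Jam3 they were -0.96 and -0.944 within Vehicle Control mice, and -0.024 and 0.018 within CLDN1 mAb mice. The difference between the groups was not tested. All values of a library share its scaling, which can add to any of these relations.

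Sums of markers of other liver cells were set beside Jam2 in the same mice. The summed level of 17 endothelial markers was 10603, 20744, 6623, 12854, 15268 and 16495 in CLDN1 mAb replicates 1 to 6. In Vehicle Control replicates 1 to 6 it was 5417, 11138, 21136, 22370, 20610 and 30239. The lowest Jam2 of each group stood with the lowest endothelial sum of that group, and the highest Jam2 with the highest sum in Vehicle Control mice but not in CLDN1 mAb mice. The fibroblast and stellate cell sum was 68904, 79827, 35244, 59385, 87244 and 114686 in the CLDN1 mAb mice and 39960, 58437, 137831, 127428, 92926 and 162411 in the Vehicle Control mice, and in both groups its lowest and highest values stood with the lowest and highest Jam2. The leukocyte sum was 27320 in the CLDN1 mAb mouse with the lowest Jam2 and 31470 in the one with the highest. In Vehicle Control mice it was 17046 and 26592 in the 2 with the lowest Jam2, against 66963, 55339 and 63050 in the 3 with the highest. In the same Vehicle Control mice the cholangiocyte sum was 49457 and 67787, against 111953, 108048 and 111575. The sum of 8 platelet and megakaryocyte markers was 190 and 300, against 599, 600 and 519. In the CLDN1 mAb mice with the lowest and highest Jam2, the cholangiocyte sum was 57656 and 79640 and the platelet sum 267 and 351. The highest cholangiocyte sum of that group, 86510, stood with a Jam2 of 339. The hepatocyte sums of the CLDN1 mAb mice were 4609325, 4203905, 3478688, 3751106, 2985366 and 2959923, so the mouse with the lowest Jam2 was not the one with the highest sum. In the Vehicle Control mice with the lowest Jam2 they were 3402580 and 3632976, against 1413830, 1636629 and 1281433 in those with the highest. Trf, whose level varied widely among mice, is part of these hepatocyte sums. The part of cell composition in the Jam2 and Jam3 relation was not tested.

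**Figure D4:**
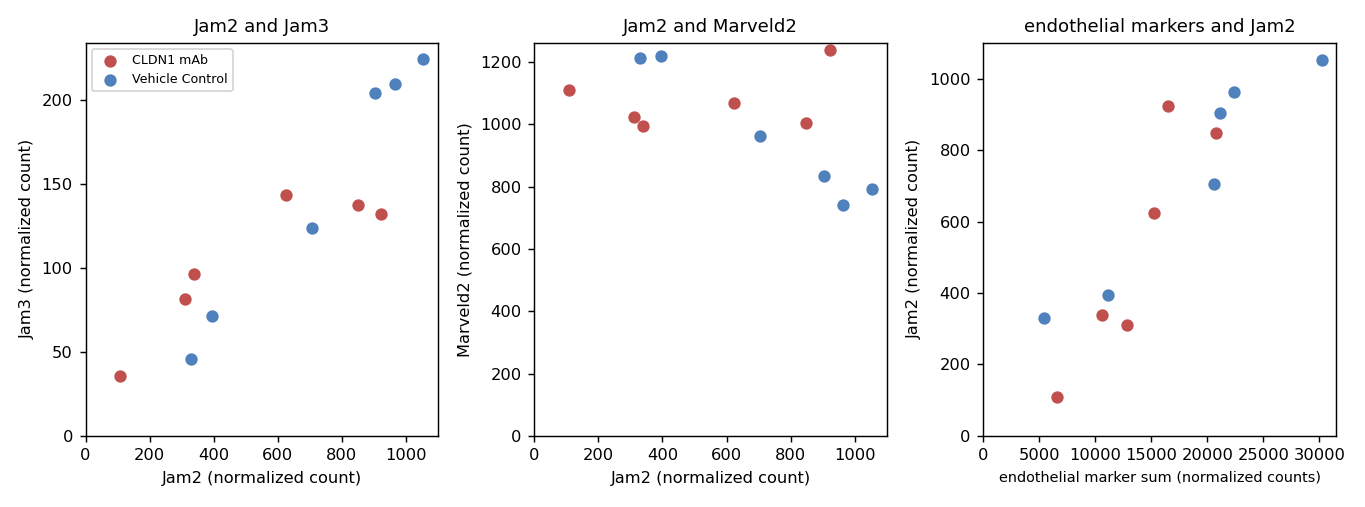
Normalized counts of Jam2 and Jam3 (left), Jam2 and Marveld2 (middle), and Jam2 against the summed endothelial markers in normalized counts (right), each point 1 of the 6 CLDN1 mAb or 6 Vehicle Control mice, with axes from 0. Jam3 follows Jam2 in both groups (r = 0.92 on the log2 scale), and the Vehicle Control mice with Jam2 of 904 to 1054 have the 3 lowest Marveld2 values, 742 to 834.

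Over all 17 libraries, the gene nearest to F11r in its centred log2 profile was Marveld2, and the gene nearest to Marveld2 was F11r, among 12746 genes compared, with a root mean square difference of 0.160. Next came Tmem209 for F11r (0.182) and Ldlrad3 for Marveld2 (0.180). Jam2 was nearest to Kit (0.296), a receptor tyrosine kinase, and Tfpi (0.337), an inhibitor of tissue factor made by endothelium. Jam3 was nearest to Olfm1 (0.271) and Sprn (0.328). Ocln was nearest to Mtss1 (0.174) and Ccser2 (0.176), Tjp1 to Tnpo1 (0.105) and Ddx6 (0.113), and Cgn to Top3b (0.153) and Dcun1d2 (0.155). Tjp3 was nearest to Tnk2 (0.212) and Mrpl53 (0.266), and Marveld3 to Mageh1 (0.279) and Pbx3 (0.310). The low, more variable genes had no neighbour as close as Tjp1 had. These distances include the differences between groups and Regular diet replicate 1, in which Tjp1 deviated by -1.96 from the mean of the other 4. They were not computed without that library, so a near gene can be one that shares its deviation.

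Per kilobase of exon, F11r had the highest median level in each group, at 2301 in CLDN1 mAb, 2330 in Vehicle Control and 1500 in Regular diet mice. In CLDN1 mAb mice the order below it was Ocln (438), Marveld2 (309), Tjp3 (304), Tjp1 (278), Cgn (261), Jam2 (79.7), Jam3 (35.7) and Marveld3 (25.2). The neighbours from Ocln to Cgn overlapped in range, while Cgn and Jam2 did not. In Vehicle Control mice it was Ocln (332), Tjp1 (298), Cgn (287), Marveld2 (266), Tjp3 (245), Jam2 (133), Jam3 (51.3) and Marveld3 (40.1), all overlapping their neighbour. In Regular diet mice it was Tjp3 (589), Cgn (430), Tjp1 (358), Ocln (341), Marveld2 (188), Jam2 (69.5), Marveld3 (23.9) and Jam3 (17.7), where Tjp3 and Cgn, Marveld2 and Jam2, and Jam2 and Marveld3 did not overlap. The ranges of F11r and Tjp3 did overlap there, with 816 for F11r and 1269 for Tjp3 in replicate 1. Tjp3 thus stood next to F11r in Regular diet mice, and lower in the order of levels per length in both CDA-HFD groups.

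Of 23 other tight junction genes tested, 8 were higher and 0 lower in Vehicle Control than in Regular diet mice, against 29.8% and 20.7% of all genes, with a median log2 fold change of 0.14 against 0.04 over all genes. Arhgef2, which encodes GEF-H1, averaged 2723 ± 591 in CLDN1 mAb mice, 3479 ± 381 in Vehicle Control mice and 286 ± 47.9 in Regular diet mice (SD, n = 6, 6 and 5), with a log2 fold change of 3.61 in Vehicle Control against Regular diet mice (adjusted p = 2.38e-11). Ildr1, which encodes an angulin at tricellular contacts, had a log2 fold change of 3.58 (adjusted p = 7.08e-08), and Clmp, a JAM-related adhesion molecule, of 3.30 (adjusted p = 7.12e-08). Cgnl1, encoding paracingulin, had -0.19 (adjusted p = 0.517), and -0.46 (adjusted p = 0.0125) without Regular diet replicate 1, so that library decides its call, and it is named here as the paralog of Cgn, chosen after its values were seen. Without Regular diet replicate 1 the counts of this list were 9 higher and 6 lower, against 32% and 25.4% of all genes, so its lower calls were obtained only with that library left out. Against Regular diet mice, CLDN1 mAb mice had 7 higher and 0 lower, against 24.8% and 14.1% of all genes, and 9 and 5 without that library, against 27.6% and 20.9%. The same shares of all genes are the background of the lists below. The other genes named from the junction lists kept their direction and call in Vehicle Control against Regular diet mice without that library.

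The polarity complexes, which place the junction on the cell, had 2 higher and 6 lower of 15 tested in Vehicle Control against Regular diet mice, against 29.8% and 20.7% of all genes, with a median log2 fold change of -0.49 against 0.04 over all genes. The counts were again 2 and 6, at a median of -0.41, without Regular diet replicate 1. Lin7a had -1.96 (adjusted p = 6.69e-05) and Pard3, the Par complex scaffold that binds JAMs, -0.83 (adjusted p = 0.00057), while Pard6g had 1.46 (adjusted p = 0.00366). Between CLDN1 mAb and Regular diet mice 2 were higher and 3 lower, against 24.8% and 14.1% of all genes, and 2 and 4 without that library. Of 21 adherens junction and desmosome genes, 6 were higher and 4 lower in Vehicle Control than in Regular diet mice, shares near those of all genes (29.8% and 20.7%), at a median of 0.13 on the log2 scale. Among them were the desmosomal Pkp1 at 3.62 (limma, adjusted p = 4.24e-07) and Ppl at 2.04 (limma, adjusted p = 2.93e-06). Nectin4 was at 3.25 (limma, adjusted p = 7.52e-06) and Nectin1 at -1.11 (limma, adjusted p = 0.0005). Pkp1 averaged 55.5 ± 20 in CLDN1 mAb, 59 ± 16.1 in Vehicle Control and 4.44 ± 3 in Regular diet mice (SD). Its Regular diet mean lay below the value that the filter required, so the size of its fold change is uncertain. Pkp1 is counted among the 6 higher genes. Between CLDN1 mAb and Regular diet mice 7 were higher and 3 lower, against 24.8% and 14.1% of all genes. Leaving out Regular diet replicate 1 gave 6 and 5 for Vehicle Control and 6 and 4 for CLDN1 mAb mice. These lists were chosen with earlier results of these data known.

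Of 8 gap junction connexins tested, 4 were higher and 1 lower in Vehicle Control than in Regular diet mice, against 29.8% and 20.7% of all genes, at a median log2 fold change of 1.02 against 0.04 over all genes. The same numbers, 4 and 1, were obtained in CLDN1 mAb against Regular diet mice, and in both comparisons without Regular diet replicate 1. Gjb1, connexin 32 of hepatocytes, averaged 18755 ± 4663 in CLDN1 mAb mice, 12947 ± 5708 in Vehicle Control mice and 40328 ± 18298 in Regular diet mice (SD, n = 6, 6 and 5), with a log2 fold change of -1.69 in Vehicle Control against Regular diet mice (adjusted p = 0.000279). Gja1, connexin 43, had 2.24 (adjusted p = 6.69e-05). Of 8 integrin genes whose products bind JAMs or pair with such a chain, 5 were higher and 0 lower in Vehicle Control than in Regular diet mice, against 29.8% and 20.7% of all genes, with a median log2 fold change of 1.32. In CLDN1 mAb against Regular diet mice 5 were higher and 1 lower, against 24.8% and 14.1% of all genes. With Regular diet replicate 1 left out, the counts were 5 and 0 for Vehicle Control and 4 and 0 for CLDN1 mAb mice. Itgam, a chain of Mac-1, averaged 1340 ± 369 in CLDN1 mAb mice, 1979 ± 811 in Vehicle Control mice and 70.7 ± 38.7 in Regular diet mice (SD, n = 6, 6 and 5), with a log2 fold change of 4.88 in Vehicle Control against Regular diet mice (adjusted p = 1.53e-08). Itgb2, the chain shared by leukocyte integrins, had 3.86 (adjusted p = 2.56e-08) and Itga4 had 1.62 (adjusted p = 8.17e-05). The summed level of the 15 leukocyte markers ran from 25146 to 38867 in CLDN1 mAb mice, 17046 to 66963 in Vehicle Control mice and 3805 to 10562 in Regular diet mice, and its part in these integrin differences was not tested. Between CLDN1 mAb and Vehicle Control mice, 0 genes of these 5 lists passed, where 0% of all genes did.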

How the data were processed

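RNA-seq of 17 liver libraries was deposited as 1 table of signal per gene and library, read counts that the authors had normalized with cuffnorm (Cufflinks 2.2.1 and mouse mm10, as the submitters' processing notes name them). Not given in the sources used here were the aligner, the annotation, the scaling option and whether strand was used. These are not raw counts, so no count model was used. In each library 97.7 to 98.2% of low values were whole multiples, to within 0.05, of a smallest step, taken as the worth of 1 fragment, and dividing by that step gave estimated fragments. Tiny values in place of 0 kept the table from being turned back into counts. An exact 0 can be a failed estimate.

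Symbols were found for 52398 of 52545 gene identifiers, and exon lengths and overlaps came from GENCODE M21. Genes that reached 10 in 5 libraries or more were tested, as log2(value + 1), on which changes of low genes look smaller than they are. The limma-trend model (limma 3.58.1, R 4.3.3) used all 17 libraries with group as its only term. Tests were two-sided, Benjamini-Hochberg adjusted over all genes, with a threshold of 0.05, and the procedure was tested on simulated data. Permutation tests of correlations were two-sided, with 100000 permutations over 12 mice. Nothing in the labels says how mice were housed or processed, and p-values cover only the spread from library to library.

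The 9 genes, the junction and marker lists and the tests were chosen with earlier results of these data known. Genes of the junction lists were named by rule: up to 3 with the smallest p in Vehicle Control against Regular diet, and 1 called in the opposite direction, except that some results are not reported here. The nearest genes were the 2 with the smallest root mean square difference of centred log2 profiles among tested genes with a mean of at least 50. Alternatives changed the offset, filter, scaling, moderation, libraries and replicate block, and the removal of a trend on exon length was added after the data were seen.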

Additional observations from a re-analysis of the deposited data

Results flagged for a closer look

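Within each group of 5 or 6 mice, the highest or lowest value of a gene was set against the rest by its gap to the nearest other value. Of 27 groups examined, 8 held such a value, 5 of them in Regular diet replicate 1, and chance alone flags about 1 in 20 groups. In Regular diet replicate 1, F11r was low at 2174, Ocln at 528, Tjp1 at 747 and Cgn at 1818, and Tjp3 was high at 4712. In CLDN1 mAb replicate 1, F11r was low at 4459 and Ocln at 1107, and that library had the most negative long-minus-short difference of its group, -0.46. Tjp3 was low at 607 in CLDN1 mAb replicate 2. Leaving out CLDN1 mAb replicate 1 brought Ocln past the threshold in CLDN1 mAb against Regular diet mice (log2 fold change 0.64, limma adjusted p = 0.0482).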

How the results depend on the processing

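Of 837 values of the 9 genes under alternatives, 780 kept direction and call, 10 lost the call, 12 gained it and 35 changed sign. The count of 5 genes called in Vehicle Control against Regular diet mice was 3 after quantile normalization, 7 with the same total per library and 4 to 6 with 1 library left out. In CLDN1 mAb against Regular diet mice the 4 calls became 4 to 5, and in CLDN1 mAb against Vehicle Control mice the count stayed at 0 in all 33 alternatives. With the same total per library the junction list calls split into 37 higher and 3 lower, against 25 and 11 as reported, for Vehicle Control against Regular diet mice, and 30 and 1 against 25 and 8 for CLDN1 mAb against Regular diet mice.

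Sign changes in Vehicle Control against Regular diet mice were Ocln at -0.23 (length trend removed, without Regular diet replicate 1), Marveld3 at -0.074 (quantile), Cgn at 0.13 (same total), and Tjp1 at -0.15 (length trend removed), -0.41 (also without Regular diet replicate 1, adjusted p = 0.0151) and -0.011 (median ratio scaling). In CLDN1 mAb against Vehicle Control mice they were F11r at 0.18 and Tjp1 at 0.16 within codes 36 to 42, Ocln at -0.053 and Marveld2 at -0.052 within codes 25 to 30, and Marveld2 at -9.6e-06 and Tjp3 at -0.006 with the same total. In CLDN1 mAb against Regular diet mice they were Jam2 at -0.14 and -0.20 (length trend removed, with and without Regular diet replicate 1), -0.034 (median ratio) and -0.25 (quantile), Marveld3 at -0.42 (quantile), and Tjp1 at 0.072 (quantile) and 0.39 (same total). With 1 library left out, log2 fold changes ran from -0.053 to 0.331 for Ocln and -0.34 to 0.19 for Tjp1 in Vehicle Control against Regular diet mice, from -0.11 to 0.053 for F11r and -0.192 to 0.024 for Tjp1 in CLDN1 mAb against Vehicle Control mice, and from -0.21 to 0.41 for Jam2 and -0.443 to 0.082 for Tjp1 in CLDN1 mAb against Regular diet mice. Apart from Regular diet replicate 1, the causes were not tested.

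Replicate numbers do not pair the mice: same-numbered libraries correlated at -0.34 to 0.02 (Vehicle Control and Regular diet), -0.20 to 0.66 (CLDN1 mAb and Vehicle Control) and -0.05 to 0.59 (CLDN1 mAb and Regular diet). With the replicate number as a block, 4, 0 and 4 genes were called in these comparisons, Tjp1 was at -0.010 in the first and Jam2 at -0.16 in the third.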
